A study of Homo sapiens with 2 samples.

Results

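The serpins are a family of proteins that share 1 fold, most of which trap and inactivate a protease by offering it a flexible loop as bait. The genes described here are entries of both libraries whose symbol is SERPIN followed by a clade letter from A to I and a number. Without genes that are not reported here, they number 34 among 25343 entries. RNA came from Huh7 cells, an established line from a well differentiated human hepatocyte-derived carcinoma, kept for 6 days in low glucose medium (0.45 g/L) or in high glucose medium (4.5 g/L). Cells of both media were grown in DMEM with fetal bovine serum, seeded at 500000 per well, and only live cells were carried on at each passage. Each medium is represented by 1 library, so the differences below have no replicate check and carry neither a test nor a p-value.

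The liver makes most of the serpins of blood plasma, among them the inhibitors that restrain clotting, complement, kinin release and leukocyte elastase. Clade A genes encode extracellular proteins, clade B genes encode serpins that stay mainly inside cells, and clades C to I encode single or few members with their own tasks. Not every serpin inhibits a protease: some carry hormones, and HSP47 is a chaperone of collagen in the endoplasmic reticulum. The serpin symbols left out by the rule were AGT, the clade A gene of angiotensinogen, at 760 TPM in low glucose and 710 TPM in high glucose, and the pseudogenes SERPINA13P, listed at 0 in both libraries, and SERPINB9P1 (0.08 TPM in low glucose and 0.28 TPM in high glucose).

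Values are TPM, the share of each gene's transcripts scaled to a total of 1000000 per library, which corrects for transcript length and lets levels of different genes be compared. Differences were taken on the scale of log2(TPM + 1) as low minus high glucose, which understates differences of low genes. A gene counted as 2-fold higher from 1 upwards and as 2-fold lower from -1 downwards on that scale. In such bulk samples, fewer cells of a kind and less RNA per cell cannot be told apart. Genes with a mean of at least 1 TPM over both libraries were compared: 18 of the serpins described and 13745 genes in all. Read numbers are unknown, so no counting interval can be set. The labelled cell type was checked with 12 hepatocyte markers, SERPINA1 among them, and all 12 lay between 154 and 16441 TPM in low glucose and between 211 and 20859 TPM in high glucose. Summed markers of fibroblast and stellate cells and of endothelial cells were lower than any of these. They were 41.0 TPM in low glucose and 30.4 TPM in high glucose for 8 fibroblast and stellate genes (1 of 4 compared, COL1A1, 2-fold higher), with THY1 at 0 in both. For 5 endothelial genes they were 2.21 and 2.14 TPM, with KDR at 0 in both. The 6 leukocyte genes summed to 240 TPM in low glucose and 575 TPM in high glucose, above the lowest hepatocyte marker. Most of it was LYZ (198 TPM in low and 550.3 TPM in high glucose), while CD68 stood at 39.3 and 20.4 TPM and PTPRC at 0.50 and 0.83 TPM. The 6 squamous epithelium genes summed to 5.61 TPM in low and 4.30 TPM in high glucose, most of it DSG3 (5.5 and 4.26 TPM). KRT5, KRT14, KRT6A and KRT13 were at 0 in both. The part of these markers in the serpin values was not tested.

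Of the serpins described, SERPINA3 and SERPINE2 met the 2-fold rule, both higher in low glucose, and none was 2-fold lower. The most abundant one, SERPINA1, was lower by less than 2-fold, and the summed level of the serpins described was 5267 TPM in low glucose and 5564 TPM in high glucose. Of the 18 serpins compared, 2 met the 2-fold rule upwards and 0 downwards, against 3.65% and 1.10% of all genes compared. Differences lay above 0 for 13 of the 18 (54.6% of all genes compared), and their median was 0.14, against 0.05 over all genes. Over all genes the difference fell with level, from a median of 0.16 in the lowest of 20 level groups to -0.14 in the highest. After subtraction of each group's median, 12 of the 18 serpins lay above 0 and their median was 0.20. With median-of-ratios scaling the median was 0.050 for the serpins and -0.03 for all genes, 11 of the 18 lay above 0, and SERPINE2 fell just short of 2-fold (0.97).

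**Figure D1:**
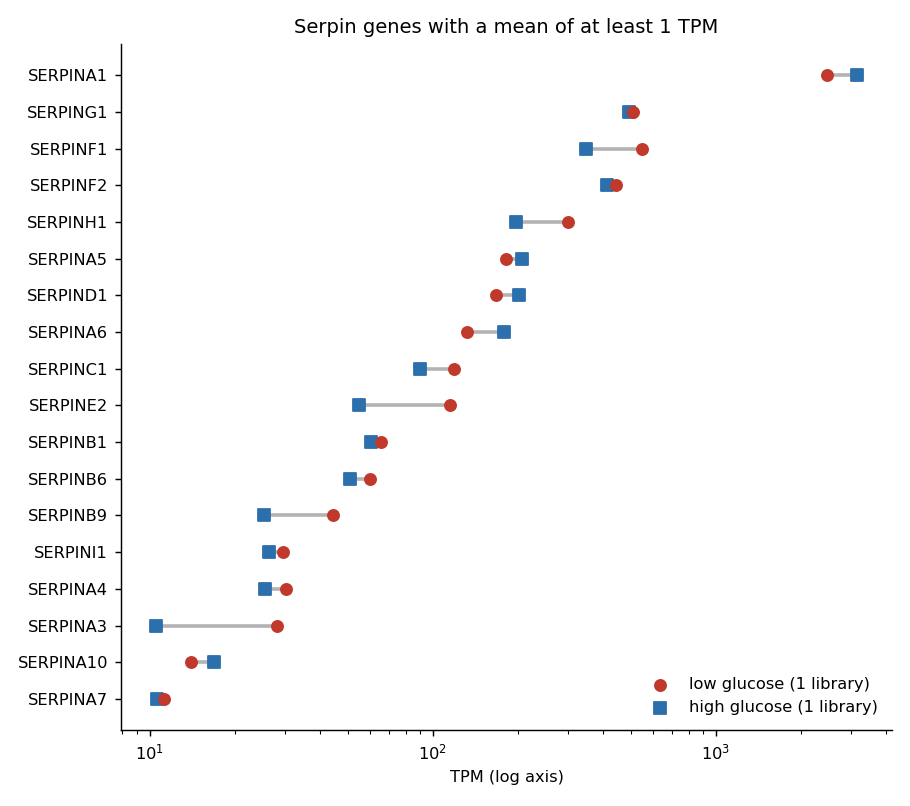
TPM (log axis) of the 18 serpin genes described that had a mean of at least 1 TPM, ordered by mean level. Circles are the low glucose library and squares the high glucose library. SERPINA3 and SERPINE2 have the widest gaps, with the low glucose circle to the right.

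**Figure D2:**
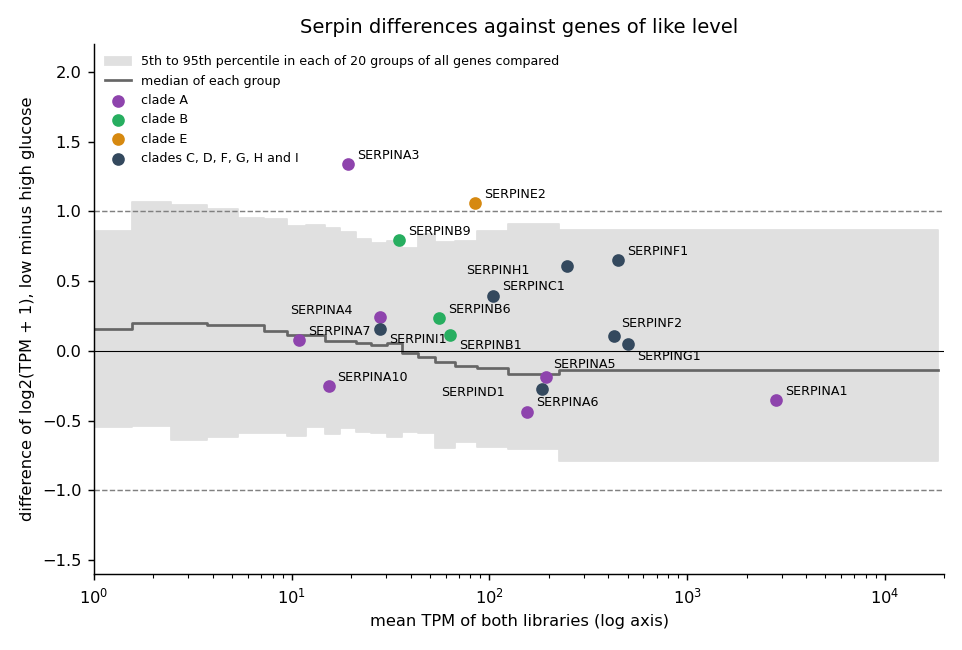
Low minus high glucose on the log2(TPM + 1) scale, against mean TPM (log axis) for the 18 serpins, coloured by clade. The grey band spans the 5th to 95th percentile of the difference in each of 20 groups of genes of like level, the dark line is each group's median and dashed lines mark 2-fold. SERPINA3 and SERPINE2 lie above the band and the upper dashed line.

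SERPINE2, which encodes protease nexin 1, a cell-surface inhibitor of thrombin and plasminogen activators, stood at 115 TPM in low glucose and 54.7 TPM in high glucose. The ratio was 2.11 and the log2 difference 1.06, close to the threshold. The gene lies on chromosome 2 at 224839765 to 224904036 (hg19), and 16 of 687 genes of like level had a difference at least as large. SERPINE3, a little studied gene of the same clade, was listed at 0 in both libraries.

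Genes of the proteases that protease nexin 1 inhibits did not all differ in the same direction. F2, the gene of prothrombin, from which thrombin is formed, lay above 0 like SERPINE2 (381 TPM in low and 238 TPM in high glucose, 0.67). PLAU, the gene of urokinase, differed the opposite way, at 16.4 TPM in low glucose and 47.5 TPM in high glucose (log2 difference -1.48). PLAT, the gene of the tissue plasminogen activator, was near 0 in both (0.17 TPM in low and 0.20 TPM in high glucose), and the urokinase receptor gene PLAUR stood at 2.61 and 3.28 TPM. VTN, the gene of the adhesion protein vitronectin, stood at 2182 TPM in low glucose and 1354 TPM in high glucose (0.69). S100A10, part of a plasminogen-binding complex, was 2-fold lower (209 TPM in low and 423 TPM in high glucose, -1.01), and its partner ANXA2 stood at 668 and 858 TPM. Of 7 genes compared on this list of plasminogen activation, 0 were 2-fold higher and 2 were 2-fold lower, with a median of -0.36. Among the 7 was CPB2 (78.9 TPM in low and 124.5 TPM in high glucose, -0.65), whose product restrains fibrin breakdown and is not an activator.

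**Figure D3:**
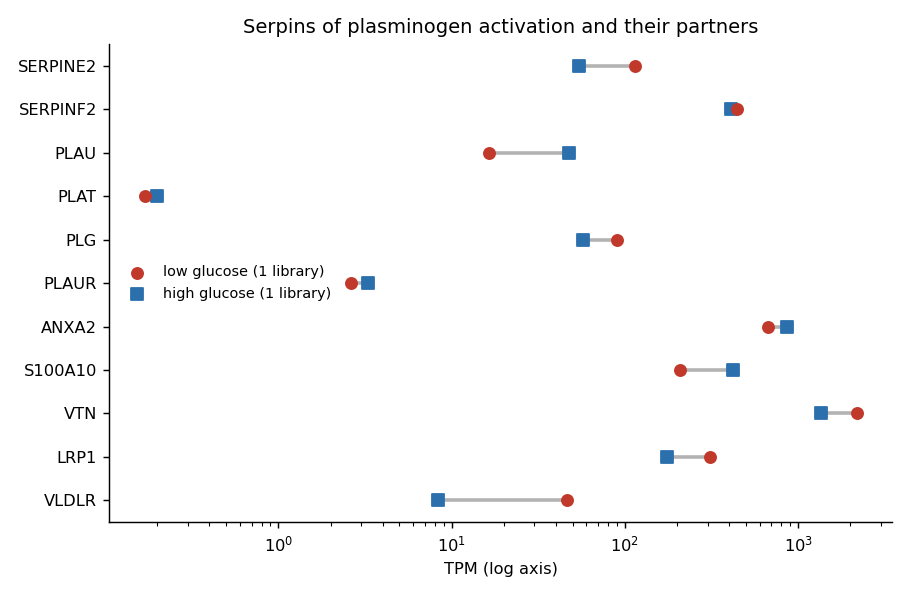
TPM (log axis) of 2 serpin genes of plasminogen activation and of the proteases, receptors and partners they act with; circles are the low glucose library and squares the high glucose library. SERPINE2 is to the right in low glucose and PLAU to the left.

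SERPINF2 and SERPINF1 are neighbours on chromosome 17, 6.70 kb apart, and differed from each other. SERPINF2, the gene of alpha-2-antiplasmin, the plasma inhibitor of plasmin, stood at 442 TPM in low glucose and 411 TPM in high glucose (0.10). Plasminogen itself (PLG) stood at 89.5 TPM in low glucose and 57.2 TPM in high glucose (0.64). SERPINF1 (chromosome 17, 1665259 to 1680859, hg19) encodes pigment epithelium-derived factor, a secreted serpin without inhibitory activity. It stood at 547 TPM in low glucose and 348 TPM in high glucose, a log2 difference of 0.65 that 61 of 688 genes of like level reached. Among the serpins described, SERPINF1 was the second most abundant in low glucose and the fourth in high glucose.

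Clade A holds the most abundant of the serpins described, and 7 of its 11 genes were compared. After SERPINA1 the next levels among the serpins described belonged to SERPING1, SERPINF1 and SERPINF2 of other clades. SERPINA1, the gene of alpha-1-antitrypsin (chromosome 14, 94843084 to 94857029, hg19), was the most abundant serpin, at 2471 TPM in low glucose and 3158 TPM in high glucose. Its log2 difference was -0.35, and 202 of 688 genes of like level had a difference at most as large. It made up 46.9% of the summed TPM of the 34 serpins in low glucose and 56.8% in high glucose. SERPINA6, the gene of the cortisol carrier corticosteroid-binding globulin, stood at 131 TPM in low glucose and 178 TPM in high glucose (-0.44), the lowest difference of the 18. SERPINA5, which encodes the protein C inhibitor, stood at 181 TPM in low glucose and 206 TPM in high glucose (-0.19). SERPINA10, whose product inhibits clotting factor Xa together with protein Z, stood at 13.9 TPM in low glucose and 16.8 TPM in high glucose (-0.25). These 4 genes were lower in low glucose under every alternative tried, always by less than 2-fold. The difference of SERPINA5 was close to the median of genes of like level (-0.16) and came to -0.023 after its subtraction.

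The remaining clade A genes went otherwise. SERPINA3, which encodes alpha-1-antichymotrypsin, an acute phase inhibitor of cathepsin G, stood at 28.1 TPM in low glucose and 10.5 TPM in high glucose. The ratio was 2.68 and the log2 difference 1.34. The gene lies on chromosome 14 at 95078714 to 95090390 (hg19), and 6 of 687 genes of like level, itself included, had a difference at least as large. SERPINA4, the gene of kallistatin, a tissue kallikrein inhibitor, stood at 30.3 TPM in low glucose and 25.5 TPM in high glucose (0.24). SERPINA7, the gene of the thyroid hormone carrier thyroxine-binding globulin, stood at 11.2 TPM in low glucose and 10.6 TPM in high glucose, a difference whose sign depended on the processing. In clade A 1 of 7 genes was 2-fold higher and 0 were lower, with a median of -0.19.

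Of the 4 clade A genes below the level compared, SERPINA11, a little studied secreted serpin, came closest at 0.92 TPM in low glucose and 1.07 TPM in high glucose. SERPINA2, a close relative of SERPINA1 beside it in the genome, was listed at 0 in low glucose and 0.19 TPM in high glucose. SERPINA9 (centerin, of germinal centre B cells) was listed at 0.07 TPM in low glucose and 0 in high glucose, and SERPINA12 (vaspin, an adipokine) at 0 in low glucose and 0.04 TPM in high glucose. On chromosome 14 the 10 clade A genes span 341 kb, and these 4 low genes lie between expressed ones: SERPINA2 is 10.0 kb from SERPINA1. SERPINA3 and SERPINA5, also neighbours in that cluster at 19.3 kb, differed in opposite directions.

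Promoters of clade A serpins are shown because several clade A genes, though not all, share letters there that the rule for choosing them did not use. RefSeq windows (GRCh38.p14) were at hand for 27 of the 34 genes, 14 of them among the 18 compared. The compared genes without a window were SERPINC1, SERPINF1, SERPINF2 and SERPING1, all secreted serpins outside clade A. A contrast of clade A with these plasma serpins could therefore not be made. Each window is the 250 bases before an annotated start, with 41 windows in all since some genes have several starts. The letters GTTAAT, 1 of 11 motifs searched, were found on either strand in the windows of 5 of 7 clade A genes compared, in 0 of 7 other serpins compared and in 2 of 13 serpins below the level compared. Those 2 were SERPINB12 and SERPINI2. The clade A genes SERPINA9, SERPINA11 and SERPINA12, below the level compared, had windows without these letters. Per window, 7 of 41 serpin windows and 6.23% of all 35116 windows of this length held the letters. A longer form, in which GTTAAT is followed by 1 base of any kind and ATTAA, was tried first: it was in 0 of the serpin windows and in 0.0484% of all windows. The last 120 bases before the start are given 5′ to 3′ on the gene's strand, with GTTAAT in capitals on either strand. SERPINA3 and SERPINA5 follow as the compared clade A genes without a match.
SERPINA1 (chr14:94388603-94388722, minus strand, the inner of 2 annotated starts): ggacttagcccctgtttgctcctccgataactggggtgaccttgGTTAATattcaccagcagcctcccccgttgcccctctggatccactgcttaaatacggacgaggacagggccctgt
SERPINA4 (chr14:94561322-94561441, plus strand): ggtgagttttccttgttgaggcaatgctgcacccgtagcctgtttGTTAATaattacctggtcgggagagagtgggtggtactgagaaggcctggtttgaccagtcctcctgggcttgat
SERPINA6 (chr14:94323337-94323456, minus strand): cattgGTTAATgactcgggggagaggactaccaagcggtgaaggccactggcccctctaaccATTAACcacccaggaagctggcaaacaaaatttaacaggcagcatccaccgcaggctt
SERPINA7 (chrX:106038728-106038847, minus strand): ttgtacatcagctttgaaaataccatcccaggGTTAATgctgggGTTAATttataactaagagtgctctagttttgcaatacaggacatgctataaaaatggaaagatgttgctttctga
SERPINA10 (chr14:94293269-94293388, minus strand, the outer of 2 annotated starts): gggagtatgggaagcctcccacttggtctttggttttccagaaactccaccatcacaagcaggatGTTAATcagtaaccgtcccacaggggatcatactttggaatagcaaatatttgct
SERPINA3 (chr14:94612271-94612390, plus strand): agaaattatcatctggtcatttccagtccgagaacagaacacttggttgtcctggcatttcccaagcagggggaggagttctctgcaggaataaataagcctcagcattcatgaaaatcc
SERPINA5 (chr14:94581306-94581425, plus strand): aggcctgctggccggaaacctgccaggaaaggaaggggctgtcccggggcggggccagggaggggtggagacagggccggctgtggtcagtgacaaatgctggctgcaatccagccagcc

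The matches are a description of letters and do not show that a factor binds. The 5 clade A genes with these letters had differences from -0.44 (SERPINA6) to 0.24 (SERPINA4), and the clade A gene that was 2-fold higher, SERPINA3, had no match. Of 9 hepatocyte transcription factor genes, 1 was 2-fold higher and 0 were lower, with a median of -0.34: CEBPB stood at 283 TPM in low glucose and 133 TPM in high glucose, and CEBPA at 193 and 333 TPM. On a list of interleukin 6 signalling genes and some acute phase genes, 1 of 10 genes compared was 2-fold higher and 3 were lower. SOCS3, a feedback inhibitor of cytokine signalling, stood at 5.07 TPM in low glucose and 1.51 TPM in high glucose, and the serum amyloid genes SAA1, SAA2 and SAA4 were lower at 8.56, 6.57 and 23.5 TPM in low glucose against 18.3, 15.3 and 78.0 TPM in high glucose. The fibrinogen gene FGB (927 TPM in low and 617 TPM in high glucose) and HP, the haptoglobin gene (107 and 153 TPM), were the most abundant of this list. Some acute phase genes outside it lay above 0. ORM1 stood at 977 TPM in low glucose and 475 TPM in high glucose (1.04). ORM2 stood at 425 and 246 TPM (0.79) and FGG at 974 and 612.5 TPM (0.67). SERPINA1, also outside this list, lay below 0 (-0.35).

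The plasma inhibitors antithrombin, heparin cofactor II and C1 inhibitor stayed within 2-fold. SERPINC1, the gene of antithrombin, which inhibits thrombin and factor Xa, stood at 119 TPM in low glucose and 90.1 TPM in high glucose (0.40). SERPIND1, the gene of the thrombin inhibitor heparin cofactor II, stood at 167 TPM in low glucose and 201 TPM in high glucose (-0.27). SERPIND1 lies wholly within the interval of PI4KA (41.9 TPM in low and 37.9 TPM in high glucose), and without known strandedness reads of the overlap cannot be told apart. SERPING1, the gene of the C1 inhibitor, which restrains complement and the kinin pathway, stood at 510.05 TPM in low glucose and 492 TPM in high glucose, and the sign of its difference (0.05) depended on the processing.

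Of the clotting and contact proteases, 5 of 7 compared lay above 0. F2, the gene of prothrombin, stood at 381 TPM in low glucose and 238 TPM in high glucose (0.67), and F10, the gene of factor X, at 97.8 and 88.4 TPM (0.15). F12, the gene of the contact factor that the C1 inhibitor restrains, stood at 218 TPM in low glucose and 118 TPM in high glucose (0.89). PROC, the gene of protein C, the target of SERPINA5, stood at 170.3 TPM in low glucose and 98.6 TPM in high glucose (0.78). The 2 below 0 were the contact system genes KLKB1 (1.24 TPM in low and 1.92 TPM in high glucose, -0.38) and F11 (8.59 and 10.4 TPM, -0.25). F7 alone of the 7 was 2-fold higher (69.3 TPM in low and 28.1 TPM in high glucose), 0 were lower and the median was 0.67. All 6 complement proteases compared lay above 0 within 2-fold (median 0.43), MASP1 (154 TPM in low and 120 TPM in high glucose) and CFI (91.5 and 73.5 TPM) being the most abundant.

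SERPINH1 encodes HSP47, the collagen chaperone and the sole serpin here that resides in the endoplasmic reticulum. It stood at 299 TPM in low glucose and 196 TPM in high glucose, a ratio of 1.52 and a log2 difference of 0.61, within 2-fold. The gene lies on chromosome 11 at 75273101 to 75283849 (hg19), and 68 of 688 genes of like level had a difference at least as large. Of 14 collagen genes listed, 10 were compared, and 10 of 10 lay above 0 (54.6% of all genes compared), with a median of 0.67. Of these, 3 were 2-fold higher (3.65% of all genes compared): COL18A1 at 229 TPM in low and 112 TPM in high glucose, COL4A6 at 4.20 and 1.47 TPM, and COL1A1 at 4.03 and 1.06 TPM. Below the level compared, COL4A1, COL4A2 and COL5A1 lay below 0 and COL6A2 above 0, all under 1 TPM in both libraries. The most abundant collagens were COL5A2 (455 TPM in low and 249 TPM in high glucose) and COL2A1 (192 and 158 TPM). All 14 genes listed as partners in collagen folding lay above 0 as well, with a median of 0.51. Of these, 2 were 2-fold higher (P4HA2 at 103 TPM in low and 48.9 TPM in high glucose, SPARC at 46.4 and 22.0 TPM). P4HB (1282 TPM in low and 1140 TPM in high glucose) and PPIB (792 and 677 TPM) were the most abundant.
HSP47 is known as a heat shock gene, and its outer window holds the heat shock element (GAA, TTC and GAA, each 2 bases of any kind apart), read on the opposite strand and set in capitals here, which 0.441% of all windows hold.
SERPINH1 (chr11:75562133-75562252, plus strand, the outer of 2 annotated starts): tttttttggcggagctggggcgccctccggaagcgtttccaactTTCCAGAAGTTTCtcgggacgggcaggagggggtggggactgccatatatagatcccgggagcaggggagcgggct
Of 10 heat shock factor targets, 2 were 2-fold higher and 0 lower, with a median of 0.38. They were HSPA1B (113 TPM in low and 31.7 TPM in high glucose) and HSPA1A (196 and 66.3 TPM), near-identical paralogs whose separate levels are uncertain, while the abundant HSP90AA1 (1240.2 TPM in low and 1608 TPM in high glucose) and HSPA8 (1001 and 1303 TPM) lay below 0.

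Clade B, the intracellular serpins, was divided by chromosome. The 3 genes of the chromosome 6 cluster were expressed, and the 10 genes of the chromosome 18 cluster were at or near 0 in both libraries. SERPINB9, the gene of the granzyme B inhibitor that protects cells from cytotoxic lymphocytes, lies on chromosome 6 at 2887500 to 2903546 (hg19). It stood at 44.5 TPM in low glucose and 25.3 TPM in high glucose, a ratio of 1.76 and a log2 difference of 0.79 that 35 of 687 genes of like level reached. SERPINB1, an inhibitor of neutrophil proteases, stood at 65.8 TPM in low glucose and 60.6 TPM in high glucose (0.12), and SERPINB6, an inhibitor of trypsin-like proteases, at 60.05 TPM in low glucose and 50.85 TPM in high glucose (0.24). All 3 were higher in low glucose under every alternative and within 2-fold.

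In the chromosome 18 cluster, 512 kb long, 7 of 10 genes were listed at 0 in both libraries, among them SERPINB5 (maspin) and the near-identical pair SERPINB3 and SERPINB4 (squamous cell carcinoma antigens). The others were SERPINB8 (0.19 TPM in low and 0.07 TPM in high glucose), SERPINB7 (0.05 and 0.04 TPM) and SERPINB2, the gene of plasminogen activator inhibitor 2 (0.05 TPM in low glucose and 0 in high glucose). Many of these genes are known from squamous epithelium, whose keratin markers were likewise listed at 0. Its marker DSG3 was not, at 5.5 TPM in low glucose and 4.26 TPM in high glucose. The neutrophil and lymphocyte protease genes ELANE, PRTN3, CTSG, GZMA and GZMB, most of them coding for targets of clade B serpins, were all listed at 0 in both libraries. Cathepsin L (CTSL), a target of SERPINB3, stood at 104 TPM in low glucose and 62.3 TPM in high glucose. On the wider list of intracellular and granule proteases, not all of them serpin targets, 0 of 7 compared met the 2-fold rule (median 0.29), with CTSD (493 TPM in low and 278 TPM in high glucose) and FURIN (424 and 464 TPM) the most abundant.

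**Figure D4:**
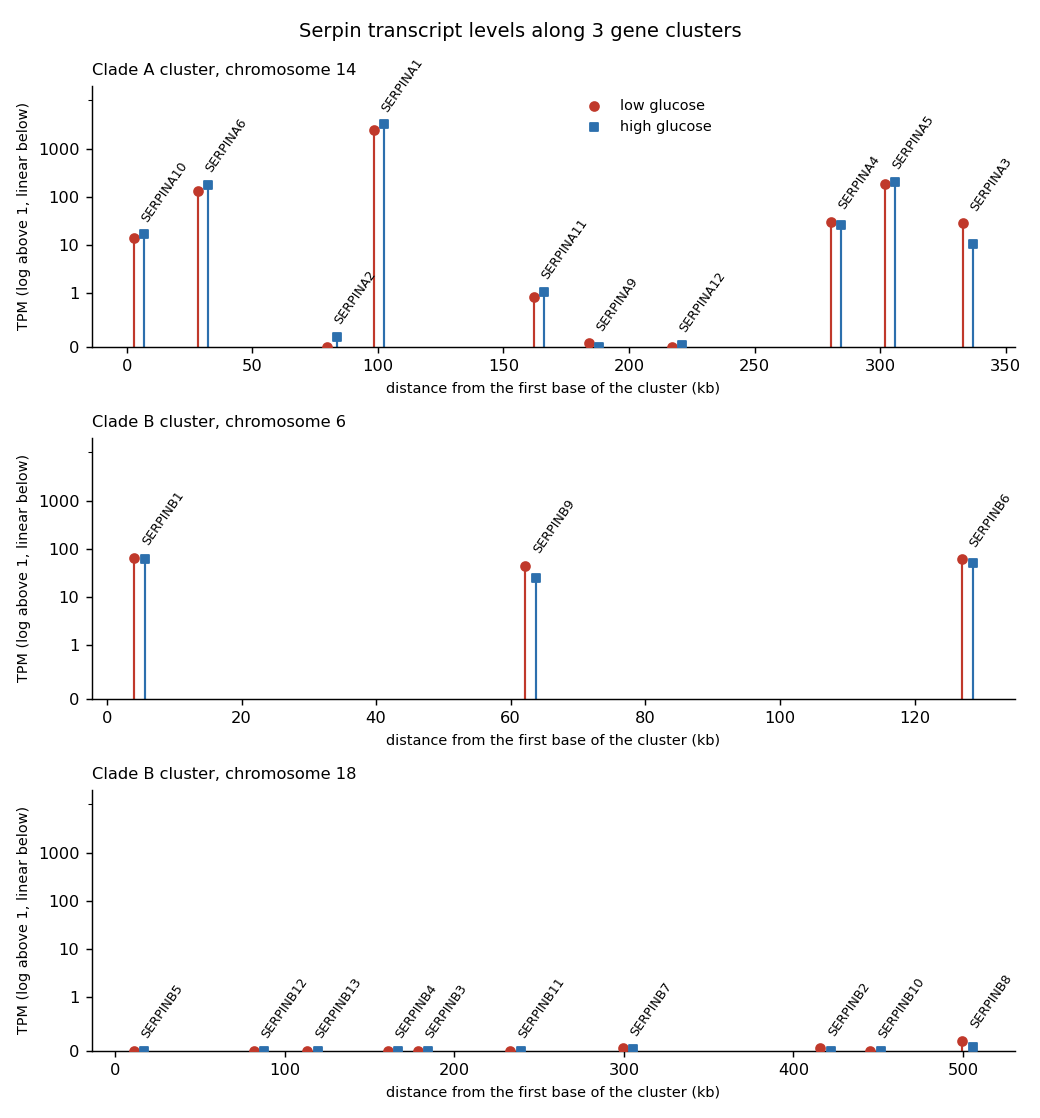
TPM of serpin genes (log scale above 1 TPM, linear below) at their place in the clade A cluster on chromosome 14 and the clade B clusters on chromosomes 6 and 18, as distance in kb from the first base of each cluster; circles are low glucose and squares high glucose. The 3 chromosome 6 genes lie between 25.3 and 65.8 TPM, while every chromosome 18 gene lies at 0.19 TPM or lower.

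Clade I had 1 gene compared, SERPINI1, which encodes neuroserpin, an inhibitor of the tissue plasminogen activator known from neurons. It stood at 29.5 TPM in low glucose and 26.4 TPM in high glucose (0.16). SERPINI2 (pancpin) was listed at 0.12 TPM in low glucose and 0.16 TPM in high glucose.

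By where the protein acts, 14 of 20 secreted serpins, 3 of 13 intracellular ones and SERPINH1 in the endoplasmic reticulum were compared, and the 2 genes past 2-fold are both secreted. Secreted serpins summed to 4797 TPM in low glucose and 5231 TPM in high glucose, a ratio of 0.917, with a median difference of 0.09. Without SERPINA1 the secreted sum was higher in low glucose, at 2326 TPM against 2073 TPM in high glucose. Intracellular serpins summed to 171 TPM in low glucose and 137 TPM in high glucose (median difference 0.24). Together the serpins described made up 0.527% of all TPM in low glucose and 0.556% in high glucose. SERPINA1 was 687 TPM lower in low glucose, SERPINF1 199 TPM higher and SERPINH1 103 TPM higher.

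**Figure D5:**
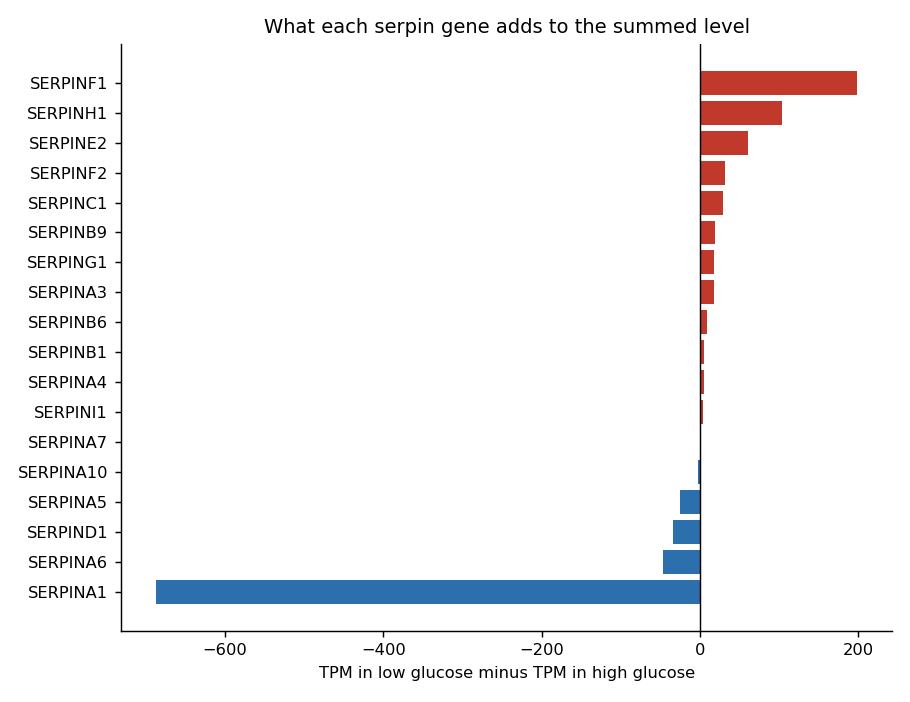
TPM in low glucose minus TPM in high glucose for the 18 serpins compared, with bars to the right for genes higher in low glucose. SERPINA1 at -687 TPM and SERPINF1 at 199 TPM are the ends of the range.

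By activity, the serpins compared that do not inhibit proteases divided. The hormone carriers SERPINA6 and SERPINA7 summed to 143 TPM in low glucose and 189 TPM in high glucose, a gap that lay in SERPINA6 (-0.44) and not in SERPINA7 (0.08). SERPINF1 and SERPINH1 summed to 846 TPM in low glucose and 545 TPM in high glucose. The 24 inhibitory serpins summed to 4277 TPM in low glucose and 4830 TPM in high glucose, SERPINA1 included. The 14 of them compared included both genes past 2-fold and had a median of 0.14.

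Other genes of the serpins' setting give a measure of comparison. Of 22 protease inhibitors that are not serpins, 1 was 2-fold higher (SPINT1, an inhibitor of membrane proteases, at 17.9 TPM in low and 7.30 TPM in high glucose) and 1 lower (PEBP1, at 326 and 707 TPM), with a median of 0.35. Of 24 secreted hepatocyte proteins outside the symbol rule, the serpin AGT among them, 1 was 2-fold higher (ORM1), 0 were lower and the median was 0.16. A list of receptors that clear serpin-protease complexes also held LRPAP1, which does not encode a receptor (56.3 TPM in low and 46.4 TPM in high glucose). Of its 9 genes 2 were 2-fold higher, against 3.65% of all genes compared, and the median was 0.43. The 2 were VLDLR (46.6 TPM in low and 8.38 TPM in high glucose) and SORL1 (20.02 and 8.30 TPM). LRP1, the main clearance receptor, stood at 309 TPM in low glucose and 174 TPM in high glucose. On a list of genes for folding, export and disposal of alpha-1-antitrypsin, 6 of 18 were 2-fold higher and 0 lower, against 3.65% and 1.10% of all genes compared. The median was 0.76. These genes are not particular to alpha-1-antitrypsin, and a link to the level of SERPINA1 was not tested. The list includes the endoplasmic reticulum chaperone genes HSPA5 (2316 TPM in low and 585 TPM in high glucose), HSP90B1 (2742 and 1175 TPM) and CALR (3419 and 1676 TPM). SYVN1 (120.2 TPM in low and 51.5 TPM in high glucose) and SEL1L (84.3 and 37.9 TPM) belong to the degradation machinery. Of the export receptor genes, LMAN1 stood at 181 and 156 TPM and SURF4 at 398 and 471 TPM (-0.25). SURF4 and the disposal gene EDEM3 (16.85 and 21.78 TPM, -0.35) were the 2 of the 18 below 0. Both membrane serine proteases compared, HPN (57.6 TPM in low and 40.6 TPM in high glucose) and TMPRSS6 (35.9 and 26.9 TPM), were within 2-fold.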

How the data were processed

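RNA from 1 low and 1 high glucose library was analysed. The deposited values are TPM per gene, per the file headers, with 2 decimals, and have a total of 1000000 in both libraries. Tools named in the submitters' processing notes are cutadapt and RSEM 1.2.21 (which estimates abundance and divides reads shared between genes), with the build hg19. Aligner, annotation and strandedness: not given in the sources used here. Because TPM are shares, they keep no depth and the values of a library depend on each other.

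Genes with a mean of at least 1 TPM were compared as the difference of log2(TPM + 1), with a call at 2-fold. For comparison at like level, genes were ranked by mean TPM into 20 equal groups. Every serpin analysed is named; each of 19 gene lists could add its 2 genes of highest mean and at most 4 genes past 2-fold, and further partners were chosen after their values were seen. Some genes are not reported here, and counts and sums over serpins and lists are without them. The members and lists were chosen with earlier results of these data known. The comparison was tested on simulated data. Promoter sequences come from RefSeq (GRCh38.p14), and 11 motifs were searched on both strands, overlaps allowed; gene positions are the authors' hg19 intervals. Alternatives were 2 pseudocounts, 2 filters, 3 scalings, 2 thresholds and subtraction of each level group's median. Python 3.11.15, numpy 2.4.6, pandas 2.3.3 and matplotlib 3.10.9 were used.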

Additional observations from a re-analysis of the deposited data

How the results depend on the processing

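With 1 library per medium, no alternative measures variation between cultures, and depth limits cannot be set from TPM. No paired analysis was possible because each medium has 1 library. Of 144 values for the 18 serpins under 8 alternatives, 143 stayed on the same side of 2-fold as reported; the exception was SERPINE2 with median-of-ratios scaling (0.97), which left 1 serpin 2-fold higher. The sign held for 16 of the 18, all but SERPINA7 and SERPING1. At 1.5-fold, 5 serpins were higher (1786 of all genes higher, 835 lower), adding SERPINB9, SERPINF1 and SERPINH1; at 3-fold, 0 were (119 and 22). With a pseudocount of 5, 234 genes in all were 2-fold higher and 79 lower, and with a mean of at least 10 TPM 293 were higher, while the count of serpins stayed at 2. The medians of all serpins, clade A and clade B were 0.12, -0.18 and 0.22 with a pseudocount of 5, and 0.0069, -0.11 and 0.0 with no filter, which adds genes at 0. They were 0.050, -0.28 and 0.15 with median-of-ratios scaling, 0.093, -0.23 and 0.19 with upper-quartile scaling, 0.16, -0.16 and 0.26 without the 50 most abundant genes in the total, and 0.20, -0.037 and 0.32 after subtraction of group medians. The ratio of summed TPM, low to high glucose, of secreted and intracellular serpins was 0.863 and 1.17, 0.889 and 1.21, and 0.936 and 1.27 under these 3 scalings.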

Other observations

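The letters TGANTCA, the site of the AP-1 factors FOS and JUN, were searched in the serpin promoters. They were found in the 250-base windows of 0 of 14 serpins compared and of 8 of 13 serpins below the level compared (SERPINB2, SERPINB5, SERPINB7, SERPINB8, SERPINB12, SERPINB13, SERPINE3 and SERPINI2). Per window, 9 of 41 serpin windows held them, against 6.57% of all windows, and a gene with several windows has more chances of a match. Of these 8 genes, most are neighbours on chromosome 18. The GC box GGGCGG went the other way, in 8 of the 14 serpins compared and in 1 of the 13 below the level compared (12 of 41 serpin windows, against 42.6% of all windows). Both counts were made after the levels were seen and are descriptions of letters, and no test was run on them.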
